A study of Mus musculus with 2 samples.

Results

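Fras1, Frem1, Frem2 and Frem3 are 4 of the 21951 protein-coding genes of the mouse annotation, and their transcripts were examined here in peak lists of Prrc2a RIP-seq, a method that sequences the RNA pulled down together with a protein, here with an antibody against Prrc2a. The members were peaks of either replicate that overlapped an annotated exon of 1 of these genes by at least 1 bp, which gave 119 of 36800 peaks. Replicate 1 supplied 64 of its 18129 peaks, and replicate 2 supplied 55 of its 18671. A replicate 1 peak was called shared when it overlapped a replicate 2 peak by at least 1 bp, which 42 of the 64 did. The genes were chosen from the number of peaks in these same lists, so counts, positions and enrichments are given as descriptions with no test. Fras1 held 56 of the replicate 1 and 48 of the replicate 2 peaks, Frem2 held 5 of each, Frem1 held 3 and 2, and Frem3 held none.

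The tissue was whole brain of male C57BL/6J mice, wild type in genotype and 4 weeks old, with 2 replicates of this 1 condition, and no knockout or untreated group entered the lists. RNA on the antibody beads was trimmed with micrococcal nuclease and depleted of rRNA before library preparation. Each list gives a peak's chromosome, start, end and fold enrichment, which is the linear ratio of antibody pull-down to a control library that is not named for this call. It gives no strand, read depth or false discovery rate, so the lack of a peak in a gene cannot be told apart from a lack of reads there.

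The products of Fras1, Frem1 and Frem2 are very large extracellular matrix proteins that assemble with each other in the zone under the basement membrane, where they help to anchor epithelia to the connective tissue beneath. They are built mainly of CSPG repeats, first described in the proteoglycan NG2, and of Calx-beta domains, and Frem3 encodes a close relative. Loss of Fras1 or Frem2, or of the intracellular adaptor Grip1 that brings them to the cell surface, causes blistering in mouse embryos and Fraser syndrome in people. In brain, basement membranes line the pial surface and the blood vessels.

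All positions are those of mm10 (GRCm38), with exons of GENCODE release M21. Fras1 (ENSMUSG00000034687) lies on the plus strand at chr5:96373955-96784728, where the exons of its 6 transcripts make up 17709 bases, 4.31% of the 410774 bases of the gene. Its transcript with the longest coding sequence has 74 exons with a median length of 148.5 bases and 12033 coding bases. Frem2 (ENSMUSG00000037016) lies on the minus strand at chr3:53513938-53657355 and has 24 exons with 9483 coding bases. Frem1 (ENSMUSG00000059049) lies on the minus strand at chr4:82897920-83052339 and has 36 exons with 6576 coding bases. Frem3 (ENSMUSG00000042353) lies on the plus strand at chr8:80611080-80695356 and has 8 exons with 6384 coding bases. No stretch of 35 bases was common to the main transcripts of any pair of the 4 genes on either strand.

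The coding bases under the peaks that carry these results are printed below, 5′ to 3′ on the strand of the gene, with every GGAC in capitals. GGAC is the core of the sequence in which N6-methyladenosine (m6A) is usually found. The stretches of Fras1 exon 26 and Frem2 exon 24 lie inside the pair with the highest mean fold enrichment of each gene, among pairs whose replicate 1 peak has its midpoint in coding sequence. This leaves out the Fras1 pair with the highest mean of all, over exon 1, whose midpoint is in the 5′ UTR. Fras1 exons 3 and 29 and Frem2 exon 1 belong to the next pairs among those with coding midpoints, and Frem1 exons 22 and 1 lie under the peaks of replicate 2 that had no partner in replicate 1. These 5 were picked after their values were seen, and runs longer than 300 bases were cut to the middle 300.
Fras1 exon 26, chr5:96647498-96647638, plus strand: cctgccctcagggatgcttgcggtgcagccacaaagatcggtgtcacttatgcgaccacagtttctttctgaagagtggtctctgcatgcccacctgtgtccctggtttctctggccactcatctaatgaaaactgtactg
Fras1 exon 3, chr5:96528501-96528608, plus strand: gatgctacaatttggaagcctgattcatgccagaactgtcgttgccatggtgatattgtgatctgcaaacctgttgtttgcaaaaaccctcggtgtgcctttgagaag
Fras1 exon 29, chr5:96657159-96657458, plus strand: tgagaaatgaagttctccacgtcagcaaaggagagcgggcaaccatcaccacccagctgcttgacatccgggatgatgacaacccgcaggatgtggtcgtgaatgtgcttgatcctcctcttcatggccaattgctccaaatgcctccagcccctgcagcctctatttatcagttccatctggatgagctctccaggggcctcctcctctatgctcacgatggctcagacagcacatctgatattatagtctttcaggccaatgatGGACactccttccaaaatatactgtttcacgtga
Frem2 exon 24, chr3:53516534-53516824, minus strand: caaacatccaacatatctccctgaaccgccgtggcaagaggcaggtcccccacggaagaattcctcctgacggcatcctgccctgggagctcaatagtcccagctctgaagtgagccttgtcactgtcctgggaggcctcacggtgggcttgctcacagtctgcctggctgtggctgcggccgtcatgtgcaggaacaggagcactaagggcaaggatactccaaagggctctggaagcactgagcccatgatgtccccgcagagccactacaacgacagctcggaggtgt
Frem2 exon 1, chr3:53656043-53656342, minus strand: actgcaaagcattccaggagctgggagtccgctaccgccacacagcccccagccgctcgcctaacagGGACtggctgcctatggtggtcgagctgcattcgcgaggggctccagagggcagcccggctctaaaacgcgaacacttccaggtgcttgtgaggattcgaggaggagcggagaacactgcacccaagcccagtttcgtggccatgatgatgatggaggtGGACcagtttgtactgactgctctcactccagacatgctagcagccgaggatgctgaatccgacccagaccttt
Frem1 exon 22, chr4:82956150-82956345, minus strand: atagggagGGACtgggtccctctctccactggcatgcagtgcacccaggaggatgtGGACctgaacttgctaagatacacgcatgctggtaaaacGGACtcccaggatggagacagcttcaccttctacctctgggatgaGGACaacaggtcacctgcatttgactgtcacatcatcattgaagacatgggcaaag
Frem1 exon 1, chr4:83020695-83020843, minus strand: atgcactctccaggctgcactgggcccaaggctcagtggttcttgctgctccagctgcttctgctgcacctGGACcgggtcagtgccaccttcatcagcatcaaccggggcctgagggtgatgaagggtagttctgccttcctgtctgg

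The Fras1 stretch of exon 26 and that of exon 3 hold no GGAC, and exon 29 holds 1 in the 300 bases shown. In Frem2, the stretch of exon 24 holds 0 and that of exon 1 holds 2. The 196 bases of Frem1 exon 22 hold 4 and the 149 of exon 1 hold 1, and no replicate 1 peak lay at either. The Frem1 stretches under replicate 1 peaks, in exons 36 and 24, are not printed and hold 2 each when cut in the same way.

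Fras1 carried peaks from its first to its last exon in both replicates, over 76.9% of its exon bases in replicate 1 and 49.9% in replicate 2. It had 56 peaks in replicate 1 and 48 in replicate 2, and 38 of the 56 (67.9%) and 40 of the 48 (83.3%) overlapped a peak of the other replicate. Over all exonic peaks these shares were 60% of replicate 1 peaks and 48.3% of replicate 2 peaks. By the number of shared peaks, Fras1 ranked 2 of 21951 genes behind Csmd1, which had 51, and ahead of Mdn1, which had 32. The rank was 23 of 21951 per kb of exon, at 2.15 shared peaks per kb, against a median of 0.325 over the 2629 protein-coding genes with at least 1 shared peak.

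Of the 74 Fras1 exons, 59 were touched by a peak of replicate 1 and 48 by a peak of replicate 2. Both replicates touched 40 exons, and 29 exons lay wholly inside peaks of both. Replicate 1 alone touched 19 exons, among them exons 32 to 34, 45 to 47 and 52 to 54, which form runs of neighbours. Replicate 2 alone touched 8 exons, among them exons 68, 69, 71 and 72 near the 3′ end. Exons 2, 10, 11, 35, 51, 70 and 73 had no peak in either replicate. The median length of these 7 was 90 bases, against 154 bases for the 40 exons with a peak in both. Exons 68 to 73 had no replicate 1 peak. From exon 38 to exon 50, replicate 1 touched every exon and replicate 2 all but exons 42, 45, 46 and 47.

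**Figure D1:**
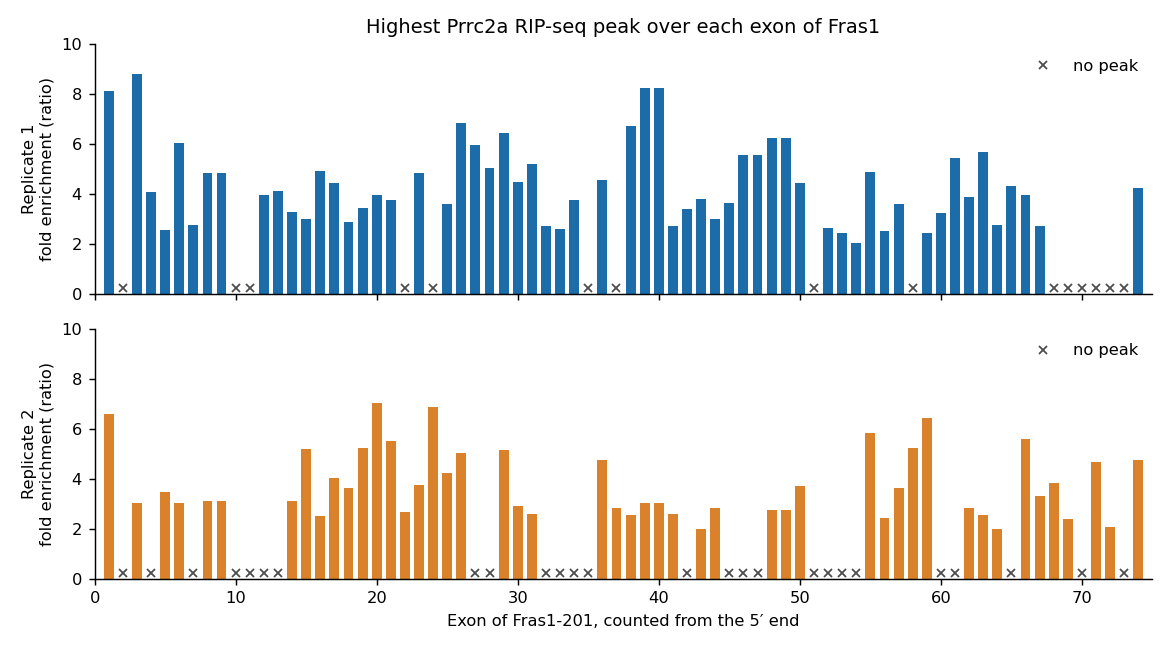
Fold enrichment (linear ratio) of the highest peak over each of the 74 exons of Fras1, counted from the 5′ end, in replicate 1 (upper panel) and replicate 2 (lower panel); a cross marks an exon with no peak. Peaks stand over 59 exons in replicate 1 and 48 in replicate 2, from exon 1 to exon 74.

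Peaks were spread over the whole Fras1 coding sequence. In peaks of replicate 1 lay 83.3% of the Fras1 coding bases, in peaks of replicate 2 lay 62.9%, and in peaks of both lay 52.4%. With the coding sequence divided into 4 equal parts from the 5′ end, 55.0%, 63.5%, 48.1% and 43.0% of the bases were in peaks of both. The 52.4% ranked 35 of the 458 protein-coding genes with a coding sequence of at least 6000 bases, 230 of which had no coding base in peaks of both. Of the 3′ UTR, 96.2% lay in peaks of replicate 1 and 21.7% in peaks of replicate 2, a wider gap than in the coding sequence. Of the 5′ UTR, 78.3% and 65.5% did.

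**Figure D2:**
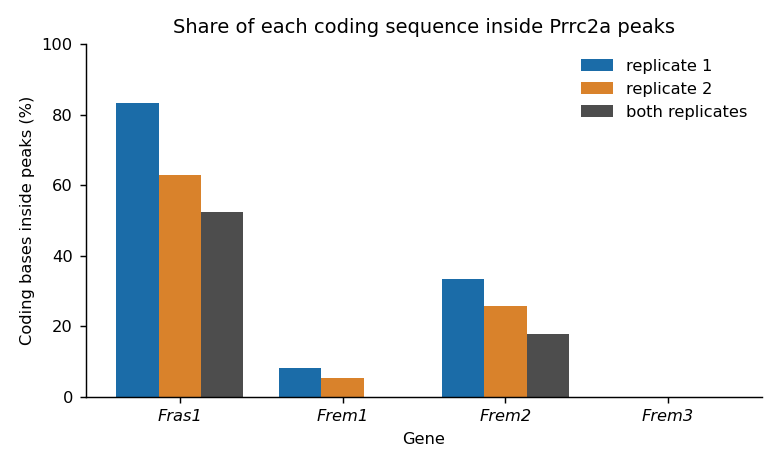
Percent of the coding bases of the main transcript of each gene that lie inside peaks of replicate 1, of replicate 2 and of both. Fras1 reaches 83.3%, 62.9% and 52.4%, Frem2 33.5%, 25.7% and 17.7%, Frem1 8.17% and 5.25% with no base in both, and Frem3 has none.

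The Fras1 peaks sat on exons although introns make up most of the gene. No peak of either replicate lay in the gene without touching an exon, while 30.3% of all replicate 1 peaks and 11.3% of all replicate 2 peaks lay outside annotated exons. This was shared with other genes of its kind: of genes with a coding sequence of at least 6000 bases and at least 10 peaks, 65 of 103 in replicate 1 and 106 of 134 in replicate 2 also had no peak outside exons. A single exon lay wholly inside 46 of the 56 replicate 1 peaks and 32 of the 48 replicate 2 peaks of Fras1, whereas 22.2% and 22.4% of exonic peaks of protein-coding genes were of this form. In these Fras1 peaks the midpoint lay a median of 11.8 and 16.3 bp from the middle of the exon. Over such peaks of all protein-coding genes it was a like 15.5 and 14 bp. The peak ran past the exon by a median of 133 bp upstream and 141 bp downstream in replicate 1, and by 133 and 118.5 bp in replicate 2.

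Most bases of a Fras1 peak were therefore intronic by annotation. The median peak was 433 bp wide in replicate 1 and 410.5 bp in replicate 2, of which 37.2% and 40.2% were exonic, with 158.5 and 154 exonic bases. Over the 38 shared Fras1 peaks of replicate 1 the medians were 169 exonic bases and 38.6% of the peak. Over all shared replicate 1 peaks of protein-coding genes they were 376 exonic bases and 100%. The overhang was similar in length over all protein-coding genes where a peak held 1 whole exon, with medians of 107 and 121 bp in replicate 1 and 116.5 and 124 bp in replicate 2. The lists hold no reads, so which bases of a peak were covered by reads was not tested.

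Enrichments of Fras1 peaks were moderate and above the middle of each list. In replicate 1 they ran from 2.03 to 8.82 with a median of 3.97, and 44 of 56 exceeded the median of all replicate 1 peaks, 2.84. In replicate 2 they ran from 2.01 to 7.02 with a median of 3.22, and 36 of 48 exceeded the median of all replicate 2 peaks, 2.63. Repeated values were frequent, since 12 of the 56 and 22 of the 48 peaks had a fold enrichment that at least 10 peaks of the same list had, against 11.1% and 12.7% of exonic peaks in general.

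The order of the exons by enrichment was not the same in the 2 replicates. The 38 shared Fras1 peaks of replicate 1 formed 41 overlapping pairs with peaks of replicate 2, and the value was higher in replicate 1 in 27 of them. Over the 41 pairs, the median log2 ratio of replicate 1 over replicate 2 was 0.30, with an SD of 0.68. Over the 8281 pairs of all protein-coding genes the median was -0.23 and the SD 0.52, and 2559 pairs were higher in replicate 1. Spearman's rho between replicates was -0.02 over the 41 Fras1 pairs and 0.55 over the 8281. These pairs share 2 libraries and, in Fras1, 1 transcript, so rho is given as a description only. Of the 41 pairs, 18 were free of repeated values, and 13 of those 18 were higher in replicate 1.

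**Figure D3:**
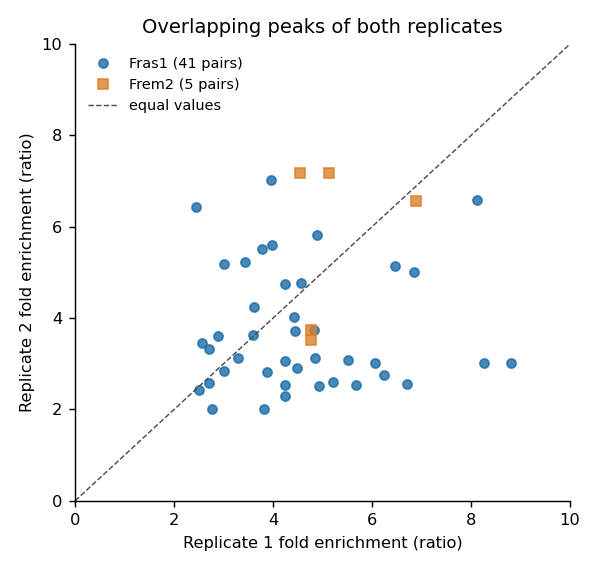
Fold enrichment (linear ratio) in replicate 1 against replicate 2 for each pair of overlapping peaks, 41 pairs of Fras1 (circles) and 5 of Frem2 (squares), with a dashed line of equal values. The Fras1 pairs scatter on both sides of the line with no common trend, 27 of them below it.

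Single exons show how the values compared. Exon 26 had values of 6.85 in replicate 1 and 5.02 in replicate 2. Exon 29 had 6.46 and 5.13. Both exons were high in both lists. Exon 3 had the highest value of replicate 1, 8.82, but 3.01 in replicate 2, and exons 39 and 40, under 1 peak, had 8.26 and 3.01. In the other direction, exon 20 had the highest value of replicate 2, 7.02, but 3.96 in replicate 1, and exon 59 had 6.42 and 2.44. Exon 24 reached 6.86 in replicate 2 and had no replicate 1 peak.

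Both ends of the Fras1 mRNA carried peaks. A pair over exon 1, which holds the 5′ UTR and the start codon, had fold enrichments of 8.12 in replicate 1 and 6.59 in replicate 2. Exon 74, which holds the end of the coding sequence and the 3′ UTR in 3551 bases, was covered by 1 peak of 3433 bp in replicate 1, at 4.25, and by 4 separate peaks in replicate 2, at 4.75, 2.54, 3.06 and 2.29. The highest of the 4 lay over coding bases at the start of the exon. Peaks also lay before the annotated start: 3 of replicate 1, at 4.93, 3.31 and 5.78, lay 2197, 1779 and 1057 bases upstream with no partner.

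A single Fras1 pair rested on the border of the rule. The replicate 1 peak at chr5:96373012-96374011, at 5.52, entered exon 1 with 57 of its 1000 bases, and its partner in replicate 2, at 3.09, ended 94 bases before the annotated start and so was no member. When both peaks had to touch an exon, 41 of the 42 peaks stayed shared. A different shared Fras1 peak, over exon 55, also overlapped an exon of Gm42604, a gene annotated on the opposite strand, and without a strand in the lists their signals cannot be told apart.

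Frem2 had far fewer peaks, and all of them fell in its first and last exon. Replicate 1 had 5 peaks and replicate 2 had 5, and 4 of each were shared, which put the gene at 0.302 shared peaks per kb of exon and at rank 443, level with 214 genes with 4 shared peaks, itself counted. Exon 1, with 5411 bases, and exon 24, with 3104 bases, are its longest exons, and the other 22, of 90 to 332 bases, had no peak in either replicate. In contrast to Fras1, every base of each Frem2 peak was exonic.

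In exon 24 of Frem2, which encodes the end of the protein, the shared peaks had fold enrichments of 6.88 in replicate 1 and 6.55 in replicate 2. This was the pair of the gene with the closest values. Over the first part of exon 1, replicate 1 had peaks at 5.13 and 4.55, and both overlapped 1 replicate 2 peak of 1480 bp at 7.18. Further along the exon, a replicate 1 peak of 1473 bp at 4.77 overlapped 2 narrow replicate 2 peaks at 3.74 and 3.51, the latter by 21 bases. The unshared peaks were 1 of replicate 1 in the 3′ UTR at 5.34 and 1 of replicate 2 in exon 1 at 3.74. All 10 values exceeded the median of their list, and none of the 5 pairs was free of repeated values.

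Coverage of the Frem2 coding sequence was highest in the first of 4 equal parts, of which 49.4% lay in peaks of both replicates, against 9.32%, 0% and 12.3% in the parts after it. Over the whole coding sequence it was 17.7%, rank 109 of the 458 genes with a long coding sequence. Neither replicate had a Frem2 peak in the 5′ UTR.

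Frem1 had peaks in each replicate at different places and no shared peak. Replicate 1 had 2 in exon 36, at 2.90 in the 3′ UTR and at 4.16 across the stop codon, and 1 in exon 24 at 3.92. Replicate 2 had 1 in exon 22 at 2.51 and 1 across the start codon in exon 1 at 5.93. The 5 peaks thus fell in 4 exons of 36, none of which was touched in both replicates. Values that at least 10 peaks of the same list had were found in all 3 Frem1 peaks of replicate 1 and 1 of the 2 of replicate 2. The value at the stop codon was that of 213 replicate 1 peaks, and the value at the start codon that of 44 replicate 2 peaks. The 2.51 of exon 22 lay below 2.63, the median of all replicate 2 peaks. Frem3 had no peak in either list, in any of its 8 exons or its introns. Its longest exon has 5155 bases, near the 5411 bases of Frem2 exon 1.

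The 4 genes thus differed in how exons of like length were represented. Among exons of 100 to 200 bases, both replicates touched 28 of 52 in Fras1, 0 of 16 in Frem2, 0 of 17 in Frem1 and 0 of 3 in Frem3. Among longer exons they touched 12 of 15 in Fras1 and 2 of 7 in Frem2, and 0 of 13 in Frem1 and 0 of 4 in Frem3. None of the 7 Fras1 exons under 100 bases was touched in both replicates, although replicate 1 touched 3. These counts are given without the share over all annotated exons of such lengths. Whether 0 of 16 or 0 of 17 is below the usual share was therefore not tested. Nor can an exon without a peak be told apart from an exon without reads.

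**Figure D4:**
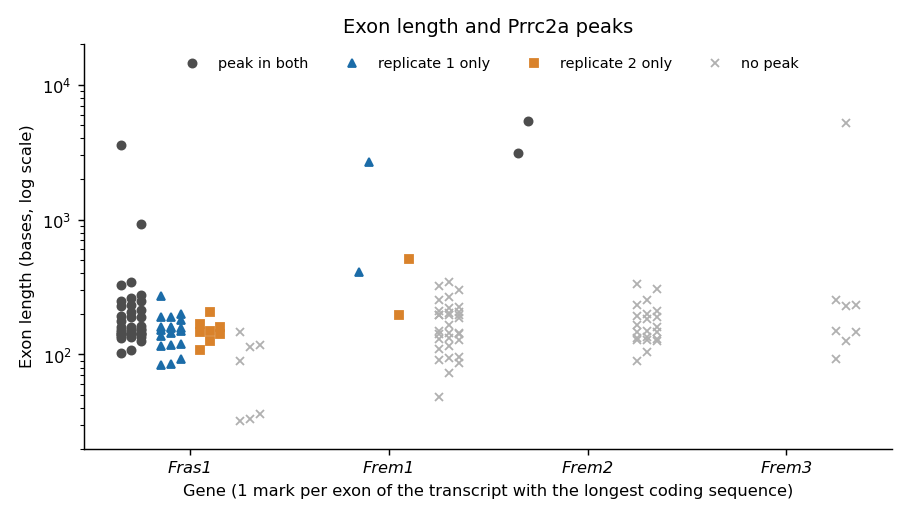
Length of every exon (bases, log scale) of the main transcript of each gene, 1 mark per exon, by whether peaks of both replicates, of 1 replicate or of none touched it. In Fras1 the exons with no peak are mostly short, in Frem2 the 2 longest exons alone have peaks, and in Frem3 no exon has one, its exon of 5155 bases included.

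Set beside the annotation as a whole, 2 of the 4 genes had at least 1 shared peak, where 12% of all protein-coding genes and 52.2% of the 458 with a coding sequence of at least 6000 bases had one. All 4 genes belong to these 458, so their share was near that of genes of their length. The median number of shared peaks was 4 over the 239 such genes with any. The 38 of Fras1 are above it, but the gene was chosen for this count, and Csmd1 with 51 and Mdn1 with 32 also had many. When both peaks had a fold enrichment of at least 4, the Fras1 count was 7. The median of 4 was taken without this threshold, so the 7 cannot be set beside it.

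Of the 42 shared peaks, 35 had their midpoint in coding sequence (83.3%, against 50.9% of all shared peaks of protein-coding genes). These were 31 of 38 in Fras1 and 4 of 4 in Frem2. In Fras1, 4 of the remaining midpoints fell in introns, between exons under 1 peak or beside the exon, and 1 each in the 5′ UTR, the 3′ UTR and upstream of the gene. When a peak was given the region with the most bases, the share in coding sequence was 19.0%, since intronic bases outnumbered the exonic ones in most Fras1 peaks. This 19.0% is given without its value over all shared peaks. The main transcripts are themselves mostly coding, with 12033 of 15848 bases in Fras1 and 9483 of 12348 in Frem2. What this adds to the gap between 83.3% and 50.9% was not tested.

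GGAC stood on the gene strand in the exonic bases of 28 of the 42 shared peaks (66.7%), and in 28 on the opposite strand. Of all shared peaks of protein-coding genes, 77.9% held GGAC on the gene strand and 75.2% on the opposite strand. The members' peaks had fewer exonic bases, with a median of 188. Among peaks with 144 to 265.5 exonic bases, the middle range of the members, 15 of 21 members (71.4%) and 1182 of 1859 peaks in all (63.6%) held it. The longer GGACT stood in 6 of the 42 (14.3%), 4 in Fras1 and 2 in Frem2, against 43.0% of all shared peaks of protein-coding genes. For GGACT no comparison was made among peaks with like numbers of exonic bases, so what peak length adds to this gap was not tested. A match says only that these letters stand in the window. The GC content of exonic bases was alike, with medians of 53.3% in the members and 53.4% in all shared peaks.

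The genes most like Fras1 in number of peaks, shared peaks, enrichments and exon length were Csmd1 and Csmd3, which encode large transmembrane proteins with CUB and sushi domains. The measure was the sum of absolute log2 differences over these 6 values among 2973 protein-coding genes. Csmd1 had 58 peaks in each replicate with 51 shared, and Csmd3 had 53 and 33 with 27 shared. Each of the 3 genes has 52 exons of 100 to 200 bases, and both replicates touched 40 in Csmd1, 28 in Fras1 and 20 in Csmd3. The genes most like Frem2 were Patj, with 7 and 5 peaks, and Maml3, with 5 and 5, each with 4 shared. All these genes were picked for like counts of peaks and shared peaks, so likeness in those counts follows from the choice.

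The partner genes of the Fraser proteins had 1 shared peak each at most. Of 7 partners (Grip1, Grip2, Npnt, Itga8, Itgb1, Vwa2 and Hmcn1), 2 had any (28.6%): Itga8, a subunit of the receptor for nephronectin, had 1 shared peak and so had Hmcn1, which encodes hemicentin. Grip1 had 3 replicate 1 peaks and no replicate 2 peak. Of 24 genes for laminins, nidogens, collagens and proteoglycans of the basement membrane, 4 had shared peaks (16.7%): Hspg2, which encodes perlecan, had 6, Lama4 had 2, and Lama3 and Lama5 had 1 each. Over all protein-coding genes the share was 12%, below that of both lists. Over those with a coding sequence of at least 6000 bases it was 52.2%, above that of both. The lists were not matched for length. The median number of shared peaks was 0 in both lists.

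Other genes for proteins with CSPG repeats or Calx-beta domains had shared peaks in 2 of 6 cases (33.3%), the sodium-calcium exchangers Slc8a1 with 11 and Slc8a3 with 2. This share lay between the 12% of all protein-coding genes and the 52.2% of those with a coding sequence of at least 6000 bases. Cspg4, which encodes NG2, had 4 replicate 2 peaks and none in replicate 1. Per kb of exon, the 42 shared peaks of the 4 genes came to 0.818, against 0.599 for 9 giant cadherins of the Fat, Dachsous and Celsr groups, 1.83 for the 3 Csmd genes and 0.435 for 6 fibrillins and latent TGF-beta binding proteins. Within each group the genes varied widely, with Fbn2 at 1.74 and 4 of the 6 fibrillin and binding protein genes at 0.

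Peak lists do not measure expression, and shared peaks of cell type markers are read beside the 12% of all protein-coding genes. None of 5 neuronal, 5 oligodendrocyte, 2 oligodendrocyte precursor and 3 endothelial markers had one, and 1 of 5 astrocyte markers, Slc1a2, had 1. Some of these markers had unshared peaks only. Map2 had 4, Cspg4 had 4 and Pdgfra had 1 in replicate 2, Mbp had 2 in each replicate, and Aldh1l1 had 1 in replicate 1. Of 3 microglia markers, Csf1r had 1 shared peak, and Cx3cr1 had 3 replicate 2 peaks with none shared. Of 4 markers of meninges and fibroblasts, Col1a1 had 8 shared peaks. Col1a2 had 3 replicate 2 peaks with none shared, and Dcn and Lum had no peak. Of 3 pituitary markers, Gh and Prl each had a peak in replicate 1, at 22.2 and 6.68, and none in replicate 2, and Pomc had none. Which cells of the whole brain the Fras1 and Frem2 RNA came from was not tested.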

How the data were processed

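Prrc2a RIP-seq peaks of whole brain were available for 2 replicates of 1 condition. Per the study's methods, the authors mapped trimmed reads to mm10 with TopHat, discarded reads without a unique position and called peaks with MACS2. A separate list was deposited for each replicate. The submitters' processing notes name TopHat2 2.0.9 and MACS2 2.0.10. The value deposited for a peak is its fold enrichment (linear ratio to a control). It is neither a count nor an expression value, and it was not normalized between replicates. Read totals are not in the files used here, so depth and counting error are unknown.

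From these lists, overlaps were computed with Python 3.11.15, numpy 2.4.6 and scipy 1.17.1 against GENCODE release M21, with positions counted from 1 at both ends. Sequence was read from GRCm38 with pysam 0.24.0, and matplotlib 3.10.9 drew the figures. Peaks were placed in regions by their midpoint, with CDS taken before UTRs, UTRs before non-coding exons and these before introns. The main transcript of a gene was the one with the longest coding sequence. The genes named were all 4 members, the 2 genes most like each member with a shared peak, and the lists given with the results. Further genes with the most shared peaks, and Gm42604, were named after their values were seen. The members and lists were chosen with earlier results of these data known. The steps for exon overlap, region at the midpoint, sharing between replicates and motif matches were first tested on simulated data of 200 genes. There, 8 of 8 quantities came back exactly. Coverage, ranks, overhang and the other steps were not tested in this way. No test was run, since the genes were chosen for their peaks in these lists. The alternatives changed the overlap, the enrichment threshold, the peaks counted, the annotation, the region rule, the motif and the replicates used.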

Additional observations from a re-analysis of the deposited data

How the results depend on the processing

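Frem2 and Fras1 had shared peaks, and Frem1 and Frem3 had none, under an overlap of 50% of both peaks and when both peaks had a fold enrichment of at least 4. That threshold left 10 shared peaks, 7 in Fras1 and 3 in Frem2, which was 15.6% of the replicate 1 peaks, with a median enrichment of 5.01 and GGAC in 70%. The 50% overlap left 32 (50% of replicate 1 peaks), 30 in Fras1 and 2 in Frem2, with 87.5% at CDS midpoints and GGAC in 71.9%. With replicate 2 peaks counted, 80% were shared, 72.7% had CDS midpoints and the median enrichment was 3.48. With the region of most bases, the CDS share was 19.0%. GGAC stood in 68.3% with 1 gene per peak and in 26.2% within 50 bp of the midpoint, and GGACT in 14.3%. The longest transcript gave Frem2 0.324 shared peaks per kb. With either replicate left out, all exonic peaks of the other numbered 55 to 64 in 3 genes, the CDS share was 76.4% to 81.3%, GGAC 64.1% to 65.5% and the median enrichment 3.51 to 4.12. Of all values recomputed, 34 were classed as unmoved and 20 as moved. The measure was the spread between replicates or, for counts, nearness to the reported count. The rule for counts was wide: beside the reported 42, the 32 under the 50% overlap and the 55 without replicate 1 were classed as unmoved. Among the 34 was the rule that both peaks touch an exon (41 shared peaks), chosen after seeing the data. No paired analysis was possible because there was 1 condition. Depth limits all absences: whether Frem3 RNA was present at all was not tested.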
